A study of Arabidopsis thaliana with 8 samples.

Results

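Dirigent protein genes and a pair of lignin enzyme genes, CCR2 and HCT, were followed on ATH1 arrays of Arabidopsis Col-0 plants supplied with iodide or bromide. The genes were chosen by AGI locus, 10 in all, and a gene was read only where a probe set named its locus alone in the platform annotation. That held for 5 of the 10: CCR2 (AT1G80820), HCT (AT5G48930) and the dirigent genes AT2G21100, AT1G58170 and AT1G65870. AT5G42510 and AT5G42500 share a probe set, which cannot be assigned to either gene and is not reported. DIR5 (AT1G64160), DIR6 (AT4G23690) and AT5G49040 are not named by any probe set of the annotation used here and were not analysed. For DIR5 the gap lies in that annotation and not in the array. The paper lists DIR5 among the root genes regulated by NaI and KI and not by KBr. The 5 probe sets read are among 22746 on the array, Affymetrix controls left out.

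Plants about 3 weeks old were grown in hydroponics on a basal solution with iodine at about 8 nM or less as a contaminant. They received no addition (control) or 10 μM of KBr, NaI or KI, and shoots (rosette leaves) and roots were sampled after 48 h. Each of the 8 arrays holds 1 pool of 3 plants, so every treatment was read once per organ and the plants of a pool cannot be told apart. Signals are MAS5 values on a linear scale, and the study took 100 as the level of a well-expressed gene, a criterion also used here. Array medians lay between 168 and 193, and 58.5% to 61.7% of the probe sets reached 100. RCA (rubisco activase), the 1 leaf marker of 12 with its own probe set, was between 30287 and 36838 in shoot and under 100 in root. The 3 root markers of 12 that could be read summed to between 8473 and 13242 in root and to between 215 and 446 in shoot. In the study's methods, shoot and root RNA were extracted with different procedures, while the labels give a single one, so organ and extraction cannot be told apart if the methods hold.

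Lignin is a wall polymer made from monolignols, alcohols derived from phenylalanine, whose radicals couple after oxidation by peroxidases and laccases. HCT moves a hydroxycinnamoyl group between coenzyme A and shikimate, a step on the way to the methoxylated monolignols. CCR2 is a cinnamoyl-CoA reductase, of the enzyme family that turns the coenzyme A esters into aldehydes, and in Arabidopsis it is known as the pathogen-responsive counterpart of CCR1. Dirigent proteins have no oxidising activity of their own and steer the coupling of monolignol radicals towards 1 stereoisomer, as in the formation of lignans, or help to place lignin in the Casparian strip, the barrier in the wall of the root endodermis. DIR5 and DIR6 are the Arabidopsis members known for the lignan pinoresinol, and the particular products of AT2G21100, AT1G58170 and AT1G65870 are not described here.

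Calls were made in a pair of ways. The fold rule, taken from the study's methods, called a gene iodide-specific when NaI and KI each differed from control by a log2 ratio of 2 or more in size, both up or both down, and KBr did not, with the brighter signal at 100 or more. The detection p that the methods also required was not used here. The rule carries no test. A limma fit over the 8 arrays in 4 cells of 2 (root or shoot, iodide salt added or not) gave log2 differences with SE and Benjamini-Hochberg adjusted p over all 22746 probe sets. The 2 arrays of a cell are different treatments (NaI and KI, or control and KBr) and not replicates, so their spread includes any effect of bromide or of the cation, and p-values hold only under that reading.

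The signals by array show that 4 of the 5 genes were brighter in root and that CCR2 was the one with a large step between the control and KBr arrays and the iodide arrays.

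**Figure D1:**
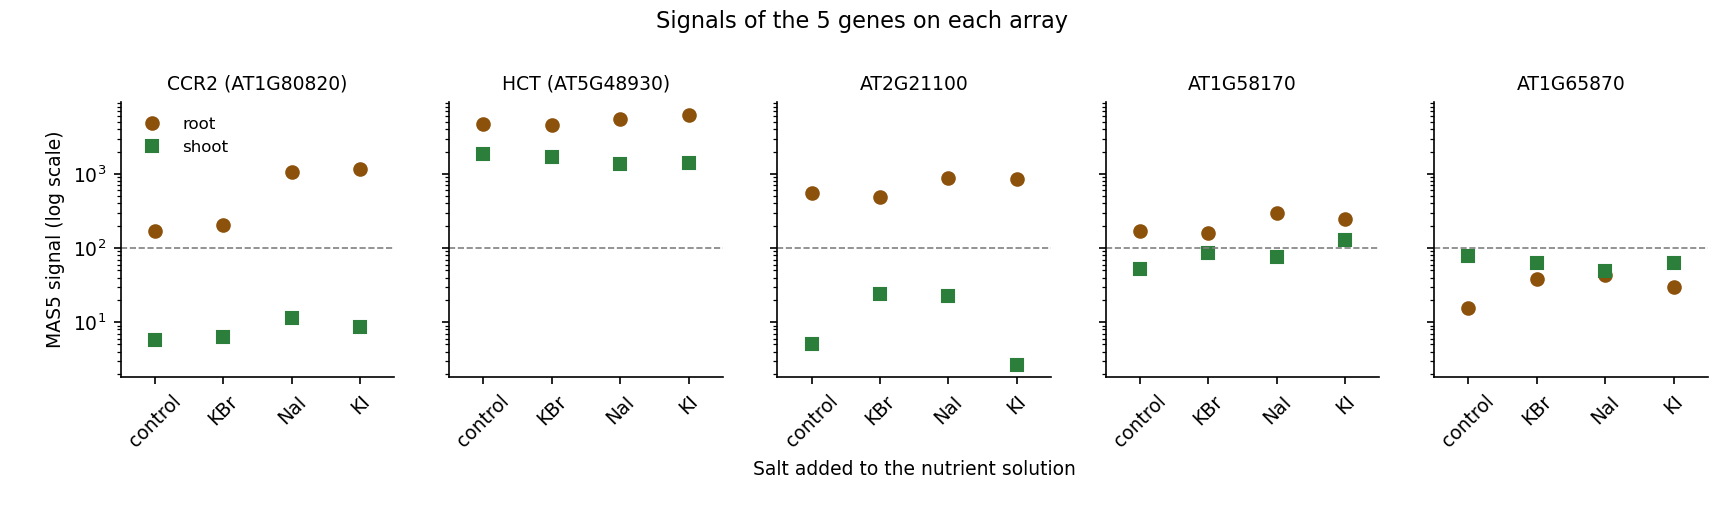
MAS5 signal (log scale) of the 5 genes on each of the 8 arrays, by salt on the x axis, circles for root and squares for shoot, with 1 array per point and the dashed line at 100. CCR2 in root stood at 168 and 206 without added iodide and at 1048 and 1155 with NaI and KI, and AT1G65870 was under the line on all arrays.

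Root and shoot were compared first. In control and KBr roots CCR2 was at 168 and 206, and with NaI and KI at 1048 and 1155. In shoot the same probe set was at 5.73, 6.31, 11.3 and 8.73 in that order. The organs did not overlap, and none of the shoot signals came near 100. The root over shoot difference was 5.87 ± 0.33 on the log2 scale (limma, SE, n = 4 arrays per organ, adjusted p = 1.89e-07). With signals under 100 set to 100, which gives a lower bound, CCR2 was on average at least 4.53-fold brighter in root over the 4 treatments. That average takes in the iodide arrays. In control and KBr the root signals of 168 and 206 were much closer to 100, so the bound there is smaller.

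AT2G21100 had the same kind of organ pattern, at 547, 495, 883 and 857 in root in control, KBr, NaI and KI. Its shoot signals were 5.06, 23.7, 22.2 and 2.65, all far under the criterion and with no common order by salt. The limma difference was 6.20 ± 0.68 (SE, n = 4 per organ, adjusted p = 2.73e-05), and the lower bound was at least 6.73-fold.

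HCT was well above 100 in both organs. Its root signals were 4705, 4581, 5578 and 6341 and its shoot signals 1859, 1716, 1352 and 1414, in the order control, KBr, NaI and KI. The lowest root array was above the highest shoot array. The difference was 1.74 ± 0.07 on the log2 scale, or 3.34-fold (limma, SE, n = 4 per organ, adjusted p = 1.92e-08). It was not even over the treatments, with root over shoot at 2.53-fold and 2.67-fold in control and KBr but 4.13-fold and 4.48-fold in NaI and KI.

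AT1G58170 was closer in the organs, with root signals of 171, 158, 299 and 248 beside shoot signals of 51.6, 86.0, 75.6 and 127. The KI shoot array alone reached 100 there, and it stayed below the lowest root array. The log2 difference was 1.39 ± 0.26 (limma, SE, n = 4 per organ, adjusted p = 0.00120), or at least 1.99-fold with dim signals set to 100.

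AT1G65870 was under 100 on all 8 arrays, between 15.8 and 43.9 in root and between 48.8 and 78.4 in shoot. The organs did not overlap, with shoot the brighter, and the log2 difference of -1.06 ± 0.44 missed the threshold (limma, SE, n = 4 per organ, adjusted p = 0.0695). Its level is not well separated from the dim end of the array, and no pattern is read from it.

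Thus 4 of the 5 genes were called higher in root and 0 higher in shoot. Over all probe sets limma called 32.8% higher in root and 23.3% higher in shoot, so a call in root is common on these arrays. The plot of root against shoot sets these genes beside the further dirigent genes that could be read.

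**Figure D2:**
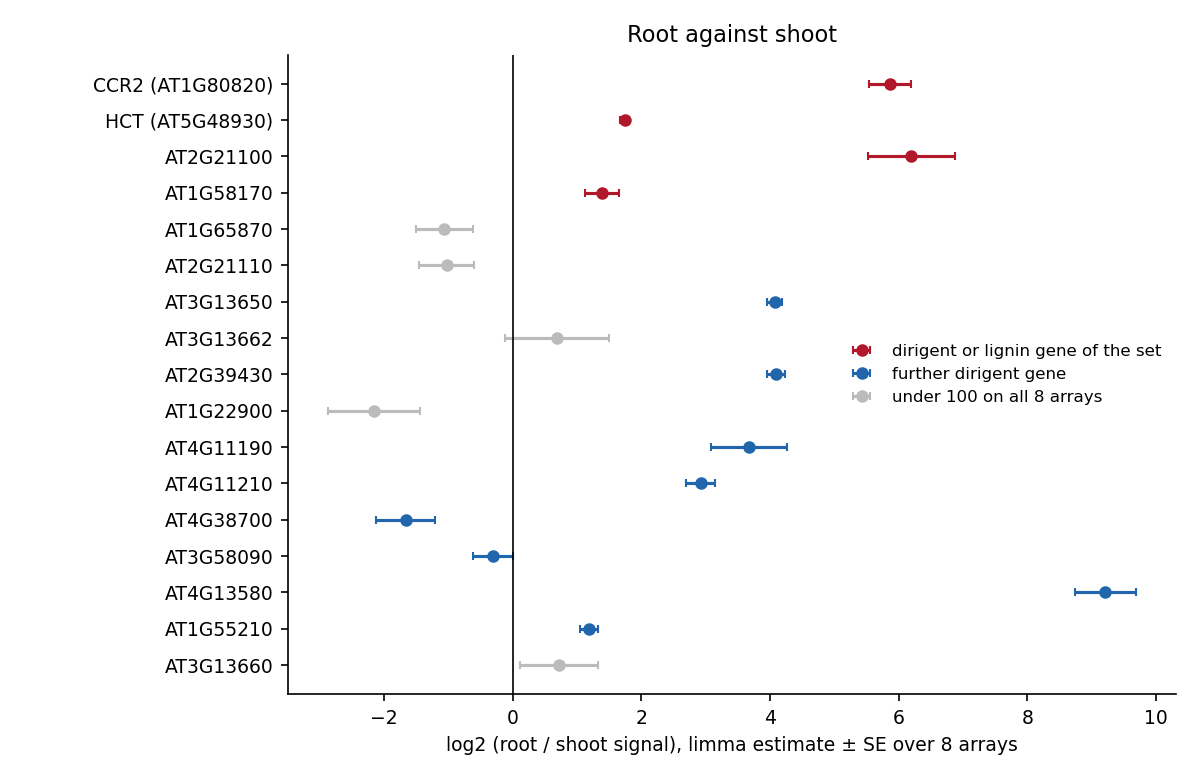
log2 of root over shoot signal, as the limma estimate with its SE over 8 arrays, for the 5 genes of the set (red) and 12 further dirigent genes (blue), with genes under 100 on all arrays in grey. Points to the right of 0 are brighter in root, among them 4 of the 5 genes of the set. Where the shoot signals are under 100, as for CCR2, AT2G21100 and AT4G13580, the position of a point is not a measured size.

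Of 17 further dirigent loci listed, 12 had a probe set of their own. 6 were called higher in root and 2 higher in shoot by limma, against 32.8% and 23.3% of all probe sets. AT4G13580 and AT2G39430, dirigent genes known from the endodermis and the Casparian strip, were at 2396, 2962, 2439 and 2451 and at 1284, 1310, 986 and 1035 in root in control, KBr, NaI and KI. In shoot they lay between 1.92 and 12.2 and between 55.4 and 74.8. That put them at least 25.5-fold and at least 11.4-fold brighter in root, with adjusted p of 9.58e-08 and 4.38e-09 (limma). AT3G13650 was at 3451 to 5413 in root and 185 to 294 in shoot. AT1G22900 and AT4G38700, the pair called higher in shoot, had no array above 79.2 and 1 array above 100, at 102, so these calls rest on dim signals.

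The response of root to each salt was taken next, and CCR2 had the largest log2 ratios of the 5 genes in NaI and KI. Its signal was 6.22-fold the control in NaI and 6.86-fold in KI, or 2.64 and 2.78 on the log2 scale. KBr was at 1.22-fold, a log2 ratio of 0.29, and KI over KBr, which share potassium, was at 2.49. CCR2 was therefore iodide-specific and higher by the fold rule. It was the 1 gene called of 5, where the rule called 1.49% of all probe sets higher and 0.378% lower in root.

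The limma contrast of NaI and KI against control and KBr in root gave CCR2 a log2 difference of 2.56 ± 0.46 (SE, n = 2 arrays per cell, adjusted p = 0.00874). This call was lost when any 1 of the 4 root arrays was left out, with adjusted p of 0.0618 to 0.129 and the log2 difference between 2.42 and 2.71. Limma called 1 of the 5 genes higher and 0 lower in root, against 4.40% and 3.69% of all probe sets. GH9C1, a root hair gene and 1 of the 3 root markers read, was lower with iodide in root, at 1534 and 1511 in control and KBr and 762 and 798 in NaI and KI (limma adjusted p = 0.0203, n = 2 per cell, and 0.125 to 0.169 without any 1 root array). EXPA7, a root hair expansin, was at 1917 and 1731 against 582 and 635, and PYK10, an abundant root glucosidase, at 8042 and 10000 against 7129 and 8544, without passing the test (adjusted p = 0.338 and 0.676). For EXPA7 the test takes in the spread of dim shoot arrays, at 2.22 to 36.4. The summed signal of these 3 markers was between 8473 and 13242 in root, and their part in the result was not tested. In bulk roots, fewer cells of a type and less RNA per cell cannot be told apart.

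**Figure D3:**
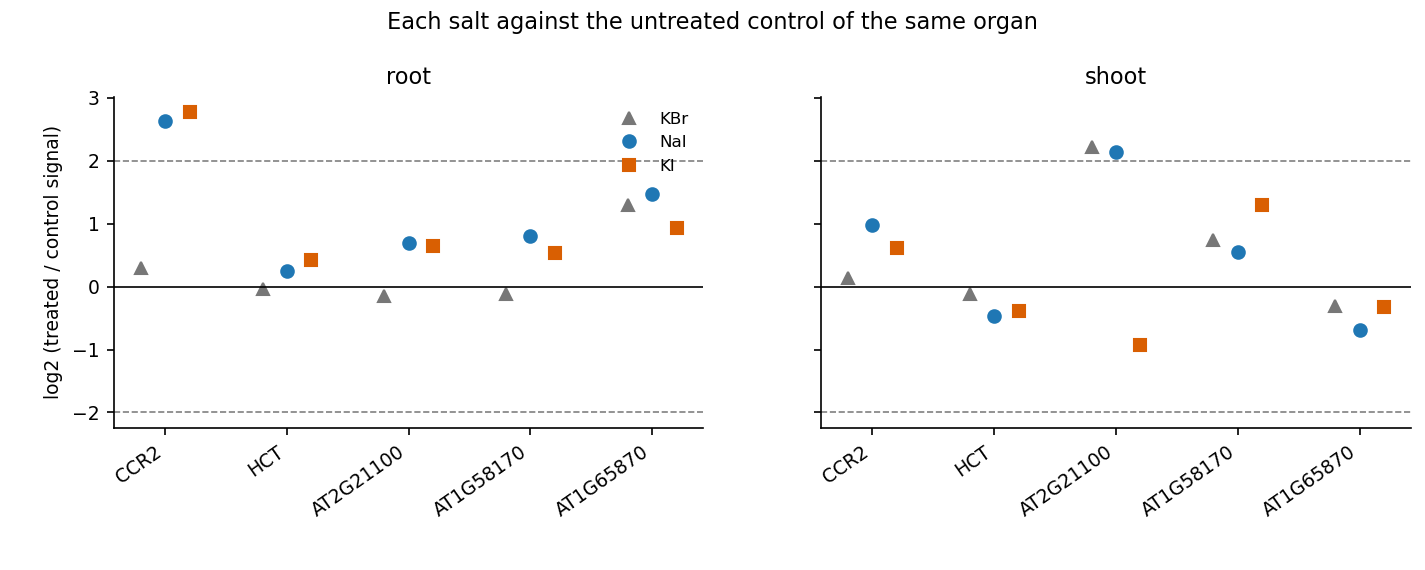
log2 of treated over control signal for each salt (triangles KBr, circles NaI, squares KI) in root and shoot, 1 array per point, with dashed lines at the fold criterion of 2 in size. In root CCR2 passed the line in NaI and KI at 2.64 and 2.78 with KBr at 0.29, and in shoot AT2G21100 passed it in KBr and NaI from signals under 24.

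The other root responses were smaller. HCT had log2 ratios of -0.04, 0.25 and 0.43 in KBr, NaI and KI, and its limma contrast was 0.36 ± 0.10 (SE, n = 2 per cell), which missed the threshold with an adjusted p of 0.0644. AT2G21100 stood at -0.15, 0.69 and 0.65, with 883 and 857 in the iodide salts above 547 and 495 without them. Its limma contrast of 0.74 ± 0.96 did not pass (adjusted p = 0.784, n = 2 per cell). That SE is pooled with the shoot arrays, where the signal ran from 2.65 to 23.7. Fitted on the root arrays alone, the same difference of 0.74 had an adjusted p of 0.00594 (limma, n = 2 per cell). AT1G58170 was at -0.11, 0.81 and 0.54, and its contrast was 0.73 ± 0.37 (adjusted p = 0.337, n = 2 per cell).

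In CCR2, HCT, AT2G21100 and AT1G58170, the 4 genes above 100 in root, both iodide arrays were above both the control and the KBr arrays. That order held for 23.4% of all probe sets in root, and the reverse order for 29.3%. In AT1G65870 the arrays overlapped, at 15.8, 38.6, 43.9 and 30.2 in control, KBr, NaI and KI. Over the 5 genes the median log2 root ratios for KBr, NaI and KI were -0.04, 0.81 and 0.65, against -0.01, -0.04 and -0.07 over all probe sets. These medians take in AT1G65870, which was under 100 on all root arrays. The genes were also chosen with earlier results of these data known, so the medians are a description only. KI over NaI lay between -0.27 and 0.18 on the log2 scale in the 4 genes, a difference with no replicate check.

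In shoot 0 of the 5 genes were iodide-specific in either direction by the fold rule, which called 0.0747% of all probe sets higher and 0.0791% lower there. Limma also called 0 of the 5, against 1.53% higher and 0.994% lower. HCT had the lowest adjusted p of the 5 genes there, and it also missed the threshold. Its shoot signals of 1352 in NaI and 1414 in KI were below those of 1859 in control and 1716 in KBr, and the log2 difference was -0.37 ± 0.10 (SE, adjusted p = 0.0957).

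CCR2 in shoot was at 0.99 in NaI and 0.61 in KI on the log2 scale, from signals of 5.73 to 11.3, too dim for a fold to be read. Its limma contrast there was 0.73 ± 0.46 (adjusted p = 0.480, n = 2 per cell). AT2G21100 had ratios of 2.23, 2.13 and -0.93 for KBr, NaI and KI, all from signals under 24. AT1G58170 was at 0.74, 0.55 and 1.30, and its iodide contrast was 0.56 ± 0.37 (adjusted p = 0.500, n = 2 per cell). Of the genes at 100 or more on a shoot array, HCT had both iodide arrays below the others and AT1G58170 overlapped. Over all shoot probe sets 21.1% had the order seen in HCT and 24.5% the reverse.

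Whether the iodide contrast itself differed between organs was tested in the same fit. HCT was the 1 gene of 5 called, where 4.42% of all probe sets were called in either direction. Its root minus shoot difference of the contrasts was 0.73 ± 0.14 (limma, SE, n = 2 per cell, adjusted p = 0.0235), at 1.28-fold in root and 0.774-fold in shoot. The call was lost when any 1 array other than root NaI was left out (adjusted p = 0.0504 to 0.0837) and without limma's variance trend (adjusted p = 0.190). For CCR2 the difference was 1.83 ± 0.66 and missed the threshold (adjusted p = 0.173), but it takes in a shoot ratio from signals of 5.73 to 11.3. With an offset of 50 added to all signals the CCR2 difference was 2.18 (limma adjusted p = 0.00152), and with signals under 100 set to 100 it was 2.56 (adjusted p = 0.00286), while under the other alternatives the adjusted p was 0.0818 to 0.453. The call depends on how dim signals are treated. The plot of both iodide contrasts shows HCT on opposite sides of 0.

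**Figure D4:**
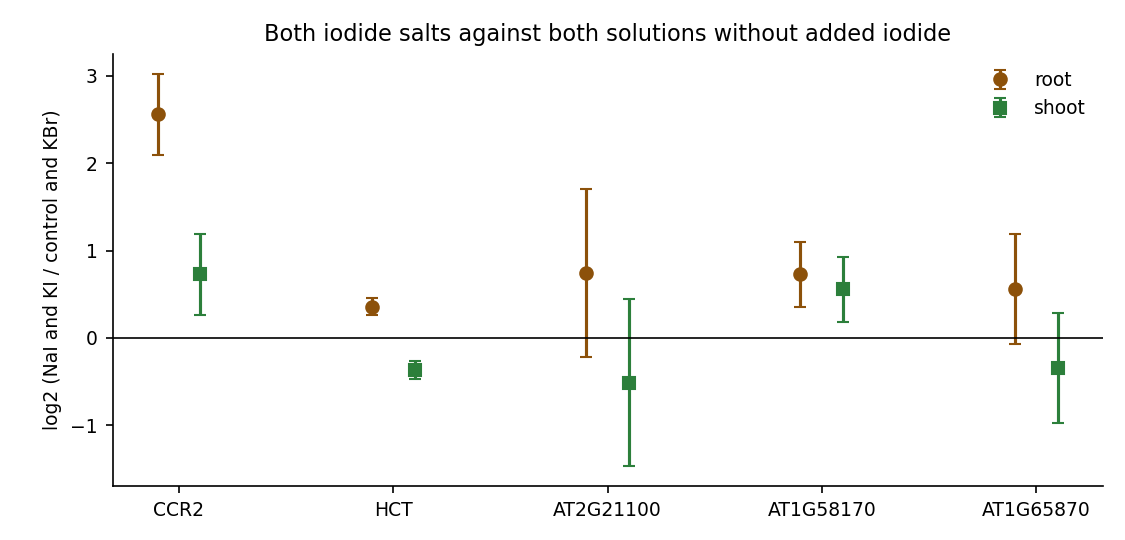
log2 of signal in NaI and KI over control and KBr, as the limma estimate with its SE (2 arrays per cell), for root (circles) and shoot (squares). HCT stood at 0.36 in root and -0.37 in shoot, and CCR2 at 2.56 and 0.73, the latter from shoot signals too dim for a fold to be read.

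Calls for iodide among the further dirigent genes are given beside the share of all probe sets. By the fold rule, 1 of the 12 was iodide-specific and lower in root and 0 were higher, against 0.378% and 1.49% of all probe sets. In shoot 0 of the 12 were called, against 0.0791% lower and 0.0747% higher. AT4G11190 had root signals of 245 and 222 without iodide (control, KBr) and of 19.4 and 57.9 with it (NaI, KI). Its log2 ratios were -3.66 in NaI and -2.08 in KI against -0.14 in KBr, so the fold call rests on iodide signals under 100, and the limma contrast of -2.80 ± 0.83 missed the threshold (adjusted p = 0.0785, n = 2 per cell). AT4G11210, which follows AT4G11190 among the protein-coding genes of the RefSeq table and was named after its values were seen, was at 482, 528, 198 and 246. Both iodide arrays lay below the others, with a limma contrast of -1.19 ± 0.32 (adjusted p = 0.0516, n = 2 per cell).

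AT1G55210 was the 1 further dirigent gene that passed the limma test for iodide in shoot, where it rose. Its shoot signals were 551 and 889 in control and KBr and 1709 and 1469 with NaI and KI, so KBr was also above control, by 0.69 on the log2 scale. The iodide contrast was 1.18 ± 0.20 (limma, SE, n = 2 per cell, adjusted p = 0.0251), and the AT1G55210 call was lost without the shoot control, NaI or KI array (adjusted p = 0.0612 to 0.0836). In root it was at 2096, 1834, 3202 and 2678, with a contrast of 0.58 ± 0.20 and an adjusted p of 0.139 (limma, n = 2 per cell). In shoot limma called 1 of the 12 higher and 0 lower, against 1.53% and 0.994% of all probe sets, and in root 0 in either direction, against 4.40% higher and 3.69% lower. Over these genes the median log2 ratios for KBr, NaI and KI were -0.17, -0.23 and -0.19 in root, against -0.03, 0.27 and 0.30 for shoot.

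The rest of the lignin pathway was thinly covered by the annotation used here, which leaves 8730 of the 22746 probe sets unnamed. A gene without a value here may still have been measured by the array. None of 25 listed monolignol genes other than CCR2 and HCT, 6 Casparian strip genes and 15 lignin regulators had a probe set naming it alone, so they were not analysed here. Of 11 peroxidases and laccases of lignin polymerization 5 could be read, all of them peroxidases, and 2 were iodide-specific and higher in root by the fold rule and by limma, which called 1.49% and 4.40% of all probe sets. These were PRX52, at 17.1, 53.5, 154 and 221 in control, KBr, NaI and KI in root, and PRX71 (AT5G64120), at 112, 161, 495 and 527. The paper had already listed PRX52 among root genes regulated by both iodide salts on these arrays. It also listed PER4 (AT1G14540), a peroxidase of the list that could not be read here. The list was chosen with earlier results known, so its count beside the share of all probe sets is a description only. The root contrasts were 2.61 ± 0.54 (adjusted p = 0.0170) for PRX52 and 1.92 ± 0.23 (adjusted p = 0.000935) for PRX71 (limma, SE, n = 2 per cell). PRX52 rested on dim signals without iodide, and KBr was 1.64 above control on the log2 scale. The PRX52 call (AT5G05340) was lost without the root control, NaI or KI array (limma adjusted p = 0.0592 to 0.127). Its log2 size was 1.79 without the root control array and 3.43 without the root KBr array, and 0.89 with signals under 100 set to 100 (AT5G05340, limma adjusted p = 0.0638), while PRX71 passed under all limma alternatives run.

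PRX25 (AT2G41480) went the other way, at 2320, 2655, 783 and 905 in root, without passing the test (limma contrast of -1.56 ± 0.60, adjusted p = 0.180, n = 2 per cell). Its SE takes in the spread of the dim shoot arrays, at 22.8 to 82.7. PRX72 (AT5G66390), known for its part in stem lignification, was at 2218, 2317, 2725 and 3089 in root and under 12 in shoot. In shoot 0 of the 5 peroxidases were called, and PRX52 was at 57.4, 64.2, 158 and 202 there. The fold rule called 0.0747% of all probe sets higher and 0.0791% lower in shoot, and limma 1.53% and 0.994%, so a count of 0 says little. Of 3 genes downstream in lignan metabolism, UGT71C1, a glucosyltransferase that acts on lignans in Arabidopsis, was read, at 3411, 3909, 2244 and 2762 in root and under 11 in shoot, with a root contrast of -0.55 ± 0.79 (limma adjusted p = 0.810, n = 2 per cell).

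The probe sets most like CCR2 were looked for among 9293 that name a single locus and reached 100 on at least 1 array, by Pearson correlation of log2 signal over the 8 arrays, as a description. They were AT3G51730 (r = 0.997), AT1G22885 (r = 0.997) and AT4G20860 (r = 0.996), the last a berberine bridge enzyme-like oxidase. A correlation ignores the size of a change, and the 3 differ in it. AT4G20860 was at 435, 647, 2423 and 2464 in root and at 34.2 to 89.9 in shoot, while AT3G51730 ran from 4729 to 6972 in root and from 2549 to 3116 in shoot. AT1G22885 was at 818, 981, 1813 and 1718 in root, and 286 to 375 in shoot. All points share the 2 organs, which carry much of each correlation.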

How the data were processed

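RNA of 4 treatments in shoot and root was hybridised by the authors to ATH1 arrays, 1 per treatment and organ, and summarised with MAS5. The deposited signals are linear intensity values, with 2% trimmed means of 494 to 496 per array. MAS5 settings, detection calls and the build were not given in the sources used here, so no coordinates are printed, and precision is limited by the number of arrays. Probe sets were named through the platform table's gene IDs and the RefSeq table of TAIR10.1, used for names and gene order only: 13513 had 1 symbol, 503 several and 8730 none.

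The 64 Affymetrix controls were left out and no further normalization was applied. Log2 ratios and the fold rule used signals as deposited. limma 3.58.1 in R 4.3.3 fitted log2 signals of 22746 probe sets with an intensity trend, at an adjusted p of 0.05. The fit was first run on simulated data in which the arrays of a cell were replicates. That run cannot check the p-values where a cell holds different treatments, as in these data. Genes named from the lists were those at least 2-fold from control in both iodide salts in an organ, with 100 on at least 1 of its arrays, else up to 2 with the highest mean signal. AT4G13580, AT2G39430, AT3G13650, AT1G22900, AT4G38700, AT4G11210 and PRX72 fall outside that rule and were picked with their values known. The members and lists were chosen with earlier results of these data known. Alternatives covered fold, signal criterion, offset, normalization, baseline, filter, variance trend, fits by organ, treatment as a block and each array left out.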

Additional observations from a re-analysis of the deposited data

Results flagged for a closer look

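The HCT result was set apart because the iodide contrast differed between organs by a test of that difference. Root minus shoot was 0.73 on the log2 scale (limma, SE 0.14, n = 2 arrays per cell, adjusted p = 0.0235), where 4.42% of all probe sets were called. Both iodide arrays were above the control and KBr arrays in root and below them in shoot. Over all probe sets 23.4% had that order in root and 21.1% had that order in shoot. The call was lost without limma's variance trend (adjusted p = 0.19) and on leaving out most single arrays, as given above. Neither organ's own contrast passed the threshold, with adjusted p of 0.0644 in root and 0.0957 in shoot. No cause was tested.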

How the results depend on the processing

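The fold-rule calls of the 5 genes were the same under all 8 alternatives, with CCR2 higher in root the 1 call. With all arrays kept, the limma root against shoot count of 4 stayed between 4 and 5, and the shoot iodide count stayed at 0. Where it was 5, the added gene was AT1G65870, higher in shoot and not in root, from signals under 100. Its log2 difference was -0.47 with an offset of 50, -1.27 with quantile normalization and -1.06 without the variance trend. It was -1.38 without the root KBr array. The root iodide count of 1 became 2 with an offset of 50 (HCT added), 2 with a filter at 100 (HCT), 2 with each organ fitted alone (AT2G21100) and, in an alternative chosen after seeing the data, 3 with signals under 100 set to 100 (AT2G21100 and AT1G58170). Leaving out 1 array gave 0 to 1, with 0 for each root array. The count of 1 for the difference between organs became 2 with an offset of 50 (CCR2 added), 3 with signals under 100 set to 100 (CCR2 and AT2G21100) and 0 without the variance trend, and 0 to 1 when 1 array was left out. HCT kept that call only without the root NaI array, and its adjusted p without the others was 0.0504 to 0.0837. Treatment as a block kept it. Direction changed only in contrasts that had not passed, each time with 1 array left out. Over such fits AT1G65870 in root ran from -0.083 (without root control) to 1.21, and AT2G21100 in shoot from -2.05 to 1.02 (0.60 without shoot KBr, 1.02 without shoot KI). The difference between organs ran from -0.20 (without shoot KBr or shoot NaI) to 0.54 for AT1G58170 and from -0.28 (without shoot KI) to 2.79 for AT2G21100. AT1G65870 has no value with the filter at 100, or with dim signals set to 100, since it never reached it, nor have CCR2 and AT2G21100 in shoot with dim signals set to 100. An array left out leaves 1 cell with a single array, assumed to vary like the others. AT1G55210 in shoot and PRX52 in root lost their calls without the variance trend (adjusted p = 0.193 and 0.0855), and AT1G55210 with signals under 100 set to 100 (0.108). MAS5 signals under 100 are imprecise, and the deposited table gives no detection call.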
